A study of Mus musculus with 72 samples.

Results

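The genes described here encode the proteasome and its close partners, and they were taken as the 46 of 24237 gene identifiers of the deposited count table whose protein-coding mouse symbol is Psma, Psmb, Psmc, Psmd or Psme followed by a number. They comprised 7 genes of the alpha ring, 7 of the beta ring, 3 inducible catalytic beta subunits (Psmb8, Psmb9, Psmb10), the thymus beta subunit Psmb11, the testis alpha subunit Psma8, 6 ATPases of the base, 11 other subunits of the base and lid, 3 assembly chaperones (Psmd5, Psmd9, Psmd10), 4 genes of activators and Psme2b, a copy of Psme2. The remaining 2, Psmc3ip and Psme3ip1, met the rule by name but encode partners of a subunit or activator. All 46 passed the filter on low counts in each comparison, so none was set aside.

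Hearts of adult C57BL/6J mice were dissected into ventricles and the 2 atria, and messenger RNA selected by its poly-A tail from each compartment was sequenced in 72 libraries. Of 4 groups of mice, naive Ahr+/+ mice were born to dams given vehicle by gavage, low-dose and high-dose mice were Ahr+/+ mice whose dams received 0.1 or 1 μg/kg of TCDD by gavage on 3 days of gestation, a dioxin that binds the aryl hydrocarbon receptor (AHR), and Ahr-/- mice lacked the receptor in the whole body and came from untreated dams. Each group held 3 libraries per sex and compartment, from 3 mice by the study's methods. All mice were about 10 months old by the study's text and 9 months by the labels, which also place the gavage later in gestation and name TCDD for all 72 libraries, the unexposed ones included. Exposure was in utero through the dam, the labels do not say which compartments came from one heart or which pups shared a dam, and they call the tissue cardiomyocytes although genes of leukocytes, fibroblasts and endothelium were detected in each group.

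The proteasome is the cell's main protease for proteins tagged with ubiquitin. A barrel of alpha and beta rings holds the catalytic sites inside, a cap of ATPases (Psmc) and other subunits (Psmd) binds, unfolds and feeds in the substrates, and activators (Psme) can open the barrel in place of that cap. Interferon-gamma exchanges the catalytic subunits Psmb5, Psmb6 and Psmb7 for Psmb8, Psmb9 and Psmb10, which gives the immunoproteasome. In heart muscle the system removes damaged and worn sarcomere proteins, with muscle ligases such as Trim63 and Fbxo32 choosing substrates. When proteasome activity falls short, the transcription factor Nfe2l1 is known to raise subunit genes together through antioxidant response elements, a motif that the related factor Nfe2l2 also binds.

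Because the members are known to share this element, their promoters were searched for its core, TGACNNNGC, on both strands in the 250 bases before the RefSeq gene start (GRCm38.p6). A window was found for 39 of the 46 members, and 5 of the 39 (12.8%) held the motif, against 3112 of 27025 genes (11.5%), so the share among members was near that of all genes. The 5 stretches are shown 5′ to 3′ on the gene's strand, with the motif or its reverse complement in capitals and up to 30 bases on each side. They lie at chr14:54618004-54618072 (Psmb5, minus strand), chr5:123228129-123228189 (Psmd9, plus), chr11:70525318-70525356 (Psmb6, plus), chr11:107479278-107479319 (Psmd12, plus) and chr14:45329574-45329635 (Psmc6, plus).
Psmb5: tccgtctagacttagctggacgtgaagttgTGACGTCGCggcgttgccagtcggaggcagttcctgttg
Psmd9: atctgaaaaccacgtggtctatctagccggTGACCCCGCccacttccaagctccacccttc
Psmb6: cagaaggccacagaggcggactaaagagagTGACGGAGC
Psmd12: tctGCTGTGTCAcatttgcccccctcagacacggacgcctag
Psmc6: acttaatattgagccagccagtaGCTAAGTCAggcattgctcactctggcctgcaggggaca
In Psmb5, Psmd9 and Psmb6 the motif begins 47, 31 and 9 bases before the start, while in Psmd12 and Psmc6 it lies on the other strand, 247 and 227 bases before it. A match describes these letters in this window and is no evidence of binding.

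Libraries held between 11873417 and 28789382 counts (median 19231739), and the members took 0.307% to 0.527% of a library (median 0.417%). Levels below are CPM, counts scaled to library size by the TMM method over all 72 libraries, and differences are log2 fold changes from edgeR's quasi-likelihood test. Ahr was at 2.35 to 8.67 CPM in the 18 Ahr-/- libraries and at 10.4 to 34.0 CPM in the 18 naive ones. In 8 of the 24 libraries numbered 49 to 72 the sex-linked genes were opposite to the label, and in none of libraries 1 to 48. They recurred at the same labels in each group of mice: right atrium of females (libraries 50, 56, 62 and 68) and ventricle of males (53, 59, 65 and 71). Myl4, an atrial myosin light chain, was at 2.86 to 46.4 CPM in 8 libraries labelled atrium, of which 4 are numbered 1 to 48 (libraries 4, 11, 23 and 24), against 707 to 4763 CPM in the other 40. In 5 libraries labelled ventricle it was at 647 to 4163 CPM: libraries 53, 59, 65 and 71 of male ventricle, whose sex-linked genes are also opposite to the label, and library 46 of low-dose males. The comparisons that hold such libraries are named as such below, with values without them. Libraries 51, 57, 63 and 69, low in Myl4, are all labelled left atrium of males. These genes do not tell left from right atrium, so the labels of female left atrium libraries 52, 58, 64 and 70 were not tested. P-values of comparisons between groups measure the spread between 3 libraries of a group, and an exact permutation test of 3 against 3 could not give a p below 0.10. Those of the chamber model measure the residual spread over all libraries fitted. That model treats libraries as independent, although by the study's methods the compartments were dissected from the same hearts. In bulk tissue, fewer cells of a type and less RNA per cell cannot be told apart.

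Per kilobase of coding sequence, most constitutive subunits lay within a narrow band. The median over libraries ranged in the alpha ring from 48.7 CPM per kb (Psma5) to 178 (Psma1), in the beta ring from 65.1 (Psmb5) to 161 (Psmb7), in the ATPases from 43.8 (Psmc4) to 123 (Psmc3) and in the other base and lid subunits from 54.9 (Psmd8) to 137 (Psmd7). The median of all members was 83.5 CPM per kb, against 5.66 for 18482 genes with counts and a coding length. The chaperones were lower, at 9.59 (Psmd10) to 37.0 (Psmd9), and so were the inducible subunits, at 4.84 (Psmb9), 16.6 (Psmb8) and 30.2 (Psmb10). Psmb11 and Psma8, which belong to thymus and testis, had medians of 6.41 and 2.03 CPM per kb. Psmc3ip, whose product acts with a partner in meiotic recombination, was at 4.29 and Psme3ip1 at 39.1.

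**Figure D1:**
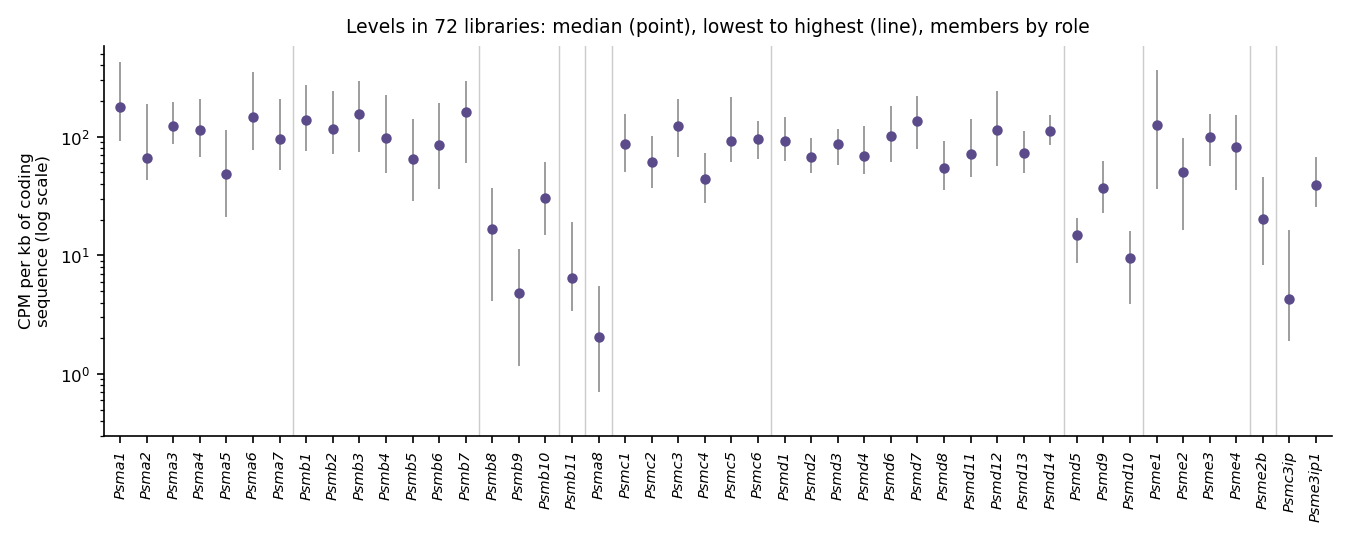
Level of each of the 46 members in CPM per kilobase of coding sequence on a log axis, members grouped by role between the thin vertical lines. Points are medians over 72 libraries and lines run from the lowest to the highest library; the constitutive subunits share a band between 43.8 and 178, while chaperones, inducible, thymus and testis subunits, Psme2b and both partners lie below it.

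The inducible subunits stayed below their constitutive counterparts in every library. Psmb8 was at 24.4% of Psmb5 per kilobase (median, range 12.7% to 84.3%), Psmb9 at 5.78% of Psmb6 (1.03% to 19.2%) and Psmb10 at 19.8% of Psmb7 (12.1% to 36.8%). By chamber, the median for Psmb8 was 27.9% in right atrium, 26.4% in left atrium and 19.4% in ventricle, and the ranges of the 3 chambers overlapped. Among the activator genes, Psme1 and Psme2, which form the interferon-inducible ring, had medians of 125 and 50.4 CPM per kb, the nuclear activator Psme3 had 100.5, and Psme4, a large single-chain activator, 81.5. Psme2b was at 20.3; its coding length of 717 bases equals that of Psme2, and as the handling of reads with several alignments is not given in the sources used here, reads may be split between them.

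The comparison of high-dose with naive female ventricle asks whether dioxin in utero left a lasting mark on the adult heart, and here members changed. Of the 46, 15 were higher and 3 lower at an adjusted p under 0.05, among 14006 genes tested, of which 12.2% were higher and 11.4% lower. The members that rose were Psma2, Psma3, Psma4 and Psma7 of the alpha ring, Psmb2 and Psmb5 of the beta ring, the ATPase Psmc5, the base and lid subunits Psmd1, Psmd4, Psmd6 and Psmd13, the inducible Psmb9 and Psmb10, and both partners. Those that fell were Psma5, the assembly chaperone Psmd5 and the activator Psme4. The set did not move as one: 29 of 46 log2 fold changes were above 0, and their median was 0.21, beside 0.01 for all genes tested.

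**Figure D2:**
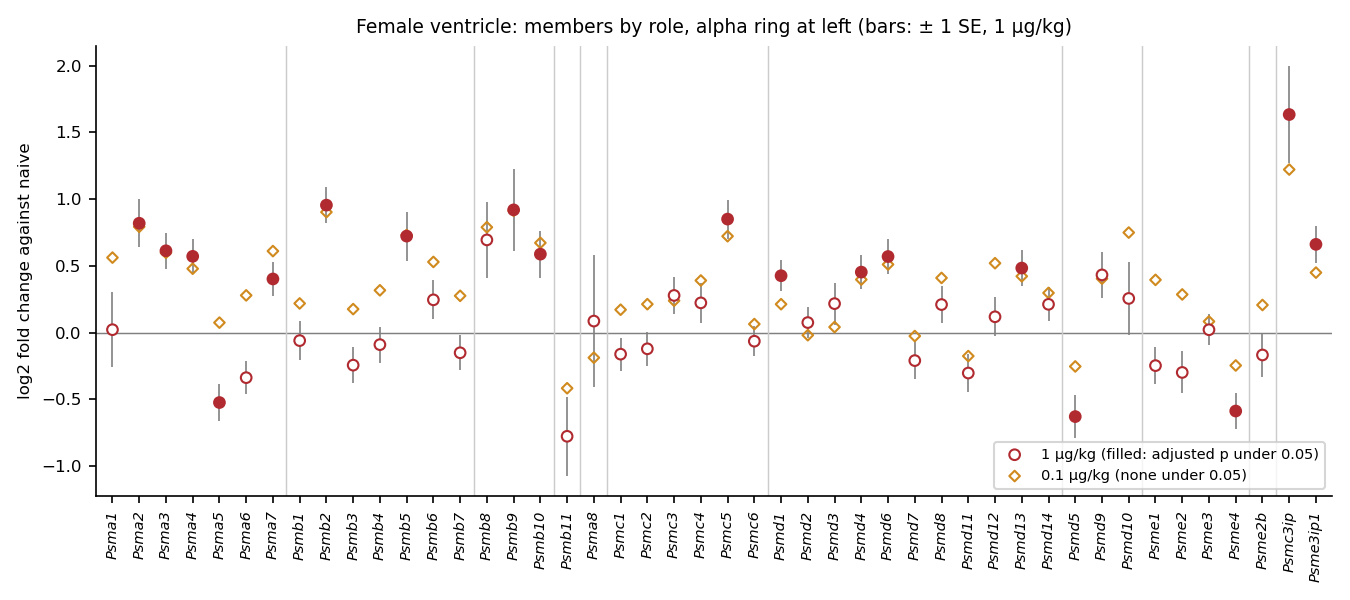
Log2 fold change against naive of each member in female ventricle, grouped by role. Circles are the high dose with bars of 1 standard error, filled where the adjusted p was under 0.05 (15 higher, 3 lower), and open diamonds are the low dose, where no member was called; both are set against the same naive libraries.

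The 8 members of smallest p are given with each library, in the order of naive libraries 35, 36 and 54, high-dose libraries 43, 44 and 66 and low-dose libraries 47, 48 and 72. Psmb2, a structural subunit of the beta ring, had 48.6, 57.9 and 54.4 CPM in naive and 96.6, 101 and 119.9 CPM in high-dose ventricle. Every high-dose library was above every naive one, and the log2 fold change was 0.96 ± 0.13 (SE, n = 3 per group, adjusted p = 0.000787, quasi-likelihood test of edgeR, Benjamini-Hochberg adjustment over all genes). Low-dose libraries held 116, 71.5 and 123 CPM, also all above naive. Psmc5, an ATPase of the base, had 94.3, 96.7 and 94.5 CPM in naive and 175, 138 and 210.1 CPM in high-dose libraries. The groups did not overlap, the high-dose libraries spread more widely than the naive ones, and the log2 fold change was 0.85 ± 0.15 (adjusted p = 0.00203, edgeR).

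Psma3, of the alpha ring, had 80.7, 80.2 and 84.4 CPM in naive and 109, 123 and 149 CPM in high-dose libraries, a log2 fold change of 0.61 ± 0.13 (adjusted p = 0.00649, edgeR). Psma2, its ring neighbour in name, had 41.2, 47.2 and 42.7 CPM in naive and 83.8, 55.1 and 96.1 CPM in high-dose libraries, with a log2 fold change of 0.82 ± 0.18 (adjusted p = 0.00690, edgeR). Psma4 had 76.3, 85.2 and 85.3 CPM in naive and 139, 112 and 121 CPM in high-dose libraries, with a log2 fold change of 0.57 ± 0.13 (adjusted p = 0.00778, edgeR). For these 3 alpha subunits no high-dose library reached down to a naive one, and library 44 was the lowest or middle of the high-dose libraries. At the low dose, library 48 stood below the other low-dose libraries for Psma2 and Psma4, at 44.0 and 96.3 CPM, the former inside the naive range.

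Among the partners, Psme3ip1, which binds the nuclear activator Psme3, had 22.6, 21.8 and 22.7 CPM in naive and 37.0, 37.2 and 33.4 CPM in high-dose ventricle. Its naive libraries were within 1 CPM of each other, and the log2 fold change was 0.66 ± 0.14 (adjusted p = 0.00533, edgeR). Psmc3ip had 1.52, 1.35 and 1.82 CPM in naive and 5.49, 2.94 and 6.47 CPM in high-dose libraries. This was the largest log2 fold change among the members, 1.63 ± 0.36 (adjusted p = 0.00727, edgeR), at a low level in every library. Neither is a subunit of the proteasome. Psme4, known for work on acetylated histones and in repair, went the other way, with 666, 721 and 708 CPM in naive and 543, 459.6 and 412 CPM in high-dose libraries, and a log2 fold change of -0.59 ± 0.13 (adjusted p = 0.00797, edgeR). All 3 high-dose libraries were below all naive ones.

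**Figure D3:**
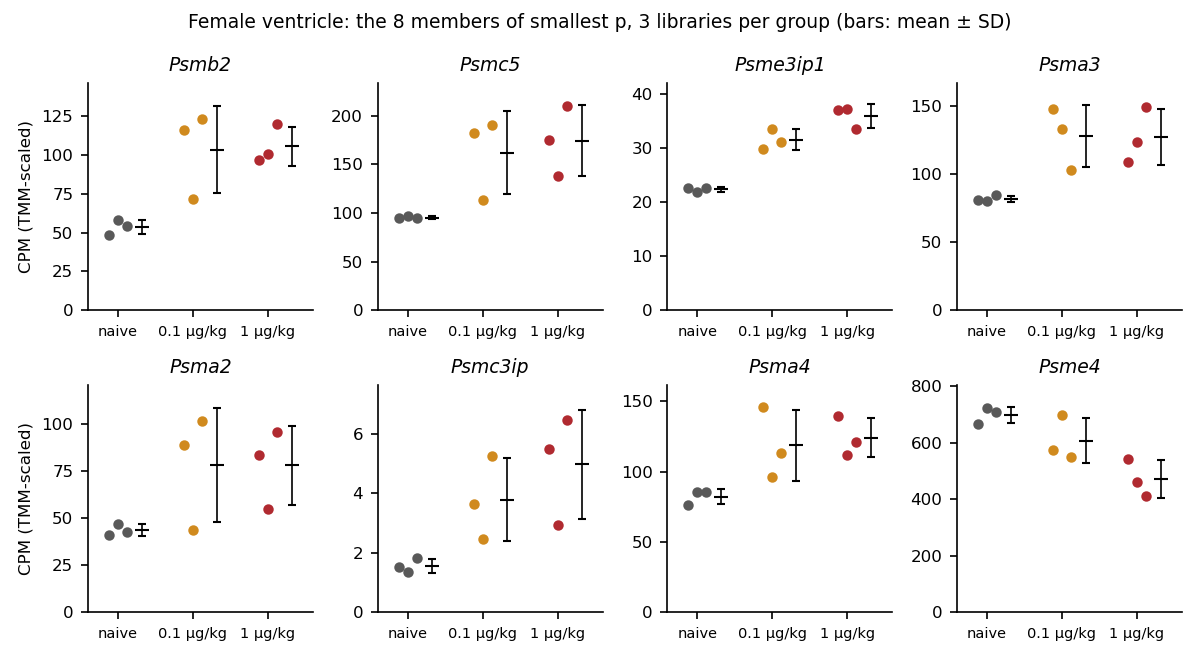
CPM (linear axis from 0) of the 8 members of smallest p in female ventricle, 1 point per library for naive, low-dose (0.1 μg/kg) and high-dose (1 μg/kg) mice, with mean and SD (n = 3) beside each group. High-dose points lie above naive points in 7 panels and below them for Psme4, and the low-dose points spread more widely than the naive ones in most panels.

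The 2 other members that fell are given by library as well. Psma5, of the alpha ring, had 47.3, 47.7 and 48.0 CPM in naive and 38.0, 32.6 and 30.3 CPM in high-dose libraries, and the log2 fold change was -0.52 ± 0.14 (adjusted p = 0.0159, edgeR). Psmd5, a chaperone that holds back assembly of the base, had 29.4, 25.4 and 31.1 CPM in naive and 18.5, 21.1 and 17.0 CPM in high-dose libraries, and the log2 fold change was -0.63 ± 0.16 (adjusted p = 0.0132, edgeR). For both genes the groups did not overlap. So within the alpha ring, whose 7 subunits are built in equal numbers, 4 rose, 1 fell and Psma1 and Psma6 were not called, at log2 fold changes of 0.02 and -0.34.

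The catalytic subunits are given with their inducible counterparts for the same comparison. Psmb5, the chymotrypsin-like site, had 43.2, 43.8 and 54.0 CPM in naive and 87.4, 55.8 and 93.7 CPM in high-dose libraries (log2 fold change 0.72 ± 0.18, adjusted p = 0.0148, edgeR). Its inducible counterpart Psmb8 had 8.68, 10.1 and 10.7 CPM in naive and 24.4, 10.2 and 13.6 CPM in high-dose libraries, where library 44 lay inside the naive range (log2 fold change 0.70 ± 0.28, adjusted p = 0.0953, edgeR, not called). Psmb6, the caspase-like site, had 57.9, 64.8 and 68.2 CPM in naive and 77.8, 63.1 and 89.4 CPM in high-dose libraries (log2 fold change 0.25 ± 0.15, adjusted p = 0.240, edgeR). Psmb5 was called and Psmb8 was not, although their fold changes were of like size, and the difference between them was not tested. Psmb5 kept its call in 7 of 15 alternative settings, and Psmb6 overlapped with naive.

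Psmb9, the inducible counterpart of Psmb6, had 3.04, 2.38 and 1.94 CPM in naive and 5.20, 3.71 and 5.16 CPM in high-dose libraries (log2 fold change 0.92 ± 0.31, adjusted p = 0.0451, edgeR). Psmb7, the trypsin-like site, had 137, 145 and 175 CPM in naive and 141, 147 and 131 CPM in high-dose libraries (log2 fold change -0.15 ± 0.13, adjusted p = 0.440, edgeR). Its counterpart Psmb10 had 21.0, 24.2 and 23.6 CPM in naive and 43.0, 26.9 and 35.0 CPM in high-dose libraries (log2 fold change 0.59 ± 0.18, adjusted p = 0.0291, edgeR). Psmb9 and Psmb10 were above naive in 3 of 3 high-dose libraries, and Psmb7 overlapped with naive. Of other interferon-response genes, Tap2 was called higher, at 1.29 (adjusted p = 0.000280, edgeR), and Irf1 (0.35) and Tap1 (0.64) were not called. The 4 listed genes of this kind summed to 109 to 121 CPM in naive and 128 to 198 CPM in high-dose libraries, without overlap. Leukocyte markers summed to 256 to 299 CPM in naive and 250 to 390 CPM in high-dose libraries, and none of the 5 tested was called. Their part in the result was not tested.

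Of the activator genes, Psme4 alone was called. Psme1 had 128, 143 and 137 CPM in naive and 93.4, 132 and 124 CPM in high-dose libraries (log2 fold change -0.25 ± 0.14, adjusted p = 0.224, edgeR). Psme2 had 38.3, 38.7 and 45.8 CPM in naive and 32.7, 40.0 and 28.9 CPM in high-dose libraries (-0.30 ± 0.16, adjusted p = 0.189, edgeR). Psme3 had 76.9, 78.8 and 84.9 CPM in naive and 83.3, 81.6 and 83.2 CPM in high-dose libraries (0.02 ± 0.12, adjusted p = 0.913, edgeR). For these 3 the groups overlapped. By role, the other counts were 1 of 6 ATPases (median log2 fold change 0.08), 4 of 11 base and lid subunits (0.21) and 2 of 7 beta ring subunits (-0.06).

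Groups without overlap were counted without a model, but in the same libraries and with TMM scaling, so the counts are not independent of the calls. In 17 members all high-dose libraries were above all naive ones, and in 5 all were below, against 22% and 19.5% of genes tested. At the low dose the counts were 16 above and 1 below, against 14.7% and 11.2%. So the share of members without overlap above naive was 17 of 46 where the background was 22%, and the share below naive, 5 of 46, was under its background.

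The counts depended on scaling, and markers of other kinds moved too. With libraries scaled by their totals alone, the median of all genes fell by 0.17 on the log2 scale and the members called were 4 higher and 4 lower, although each of the 18 called members kept its sign. Cardiomyocyte genes were also higher, the 5 markers summing to 40102 to 53899 CPM in naive and 60894 to 98586 CPM in high-dose libraries, with Myh6, Actc1 and Tnnt2 called higher and Ryr2 lower, and the ventricular genes Myl3 and Myh7 called higher. The fibroblast gene Dcn was called lower (-0.47, adjusted p = 0.0379, edgeR), Xist was called lower (-0.87), and endothelial markers summed to 523 to 730.4 CPM in naive and 707 to 775 CPM in high-dose libraries. Their part in the members' result was not tested. Without library 35 the calls were 7 higher and 1 lower, beside 789 higher and 764 lower of 14256 genes. Without library 36 they were 8 and 2, beside 944 and 909 of 14318 genes. In libraries 1 to 48 alone (2 against 2) they were 9 and 1, against 6.5% of genes called higher there. With all 4 groups of female ventricle in one fit 4 members were called, all higher. The share of all genes called is not given here for that fit or for scaling by totals alone. Psmb2 and Psmc5 kept their call in each of the 15 alternative settings at that threshold, and Psmb9 in 3 of them.

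Of 36 listed genes that work with the proteasome but carry other symbols, 35 were tested in high-dose female ventricle, and 4 were higher and 8 lower, where 12.2% of all genes were higher and 11.4% lower. Adrm1, a ubiquitin receptor of the cap, had 36.9, 40.4 and 35.6 CPM in naive and 81.2, 72.5 and 84.8 CPM in high-dose libraries (log2 fold change 1.06 ± 0.13, adjusted p = 0.000424, edgeR). Usp14, a deubiquitinase that docks on the cap, had 154, 151 and 149 CPM in naive and 76.0, 98.2 and 94.3 CPM in high-dose libraries (-0.78 ± 0.13, adjusted p = 0.00157, edgeR). For both genes the groups did not overlap.

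The transcription factor Nfe2l1 had 409.8, 478 and 402 CPM in naive and 705, 486 and 767 CPM in high-dose ventricle (0.58 ± 0.16, adjusted p = 0.0203, edgeR). Nfe2l2 had 147, 134 and 160.4 CPM in naive and 86.5, 108 and 79.0 CPM in high-dose libraries (-0.72 ± 0.14, adjusted p = 0.00429, edgeR). The first was above naive in 3 of 3 libraries, narrowly in library 44, and the second below in 3 of 3. The assembly factor Pomp (0.57) and the ligase Stub1 (0.62) were the other listed genes that rose. Among those that fell were Ube3c (-0.60), a ligase on the cap, Ecpas (-0.45), the shuttle Ubqln2 (-0.83) and the muscle ligases Trim63 (-0.59) and Fbxo32 (-0.49). At the low dose none of the 35 was called, with the smallest p at Adrm1 (0.94) and Stub1 (0.66).

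The low dose in female ventricle asks whether the smaller exposure had a like effect, and here no member was called. The share of all genes called was 0%. At an unadjusted p under 0.05, 16 members were higher and 0 lower, against 9.9% of genes tested higher, and the count ran from 8 (without library 35 or 36) to 21 (without library 72). Among all genes, 1343 of 14145, 1477 of 14207 and 2681 of 14182 had such a p in either direction without library 35, 36 or 72. The median log2 fold change of members was 0.35, beside 0.02 for all genes, and 39 of 46 were above 0. The 2 members of smallest p were Psmb2 (0.90 ± 0.22, adjusted p = 0.144, edgeR) and Psmb8 (0.79 ± 0.20, adjusted p = 0.144, edgeR). Library 47 was the highest of the group for Psma5 and Psma6, with 82.9 CPM of Psma5 and 258 CPM of Psma6, where libraries 48 and 72 held 41.6 and 31.8 CPM and 115 and 111 CPM. The low- and high-dose comparisons share their naive libraries, so likeness between them is not independent.

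Compared directly, high- and low-dose female ventricle differed at no member (0% of all genes called). At an unadjusted p under 0.05, 2 members were lower, a cut for which the share of all genes is not given here. These members were Psme2 (-0.60 ± 0.25, adjusted p = 0.895, edgeR) and Psme1 (-0.66 ± 0.29, adjusted p = 0.895, edgeR). The median over members was -0.14, and a p that misses the threshold does not show that the doses act alike.

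In male ventricle the same exposure gave no call by label, and 0% of all genes were called at either dose. At the high dose the smallest p was that of Psmb5 (1.01 ± 0.42, adjusted p = 0.532, edgeR), followed by Psma4 (0.51 ± 0.23, adjusted p = 0.540, edgeR). Both groups contained a library whose sex-linked genes are opposite to the label and whose Myl4 is at an atrial level, naive library 53 and high-dose library 65. Psmb6 had 38.0, 53.7 and 47.6 CPM in naive libraries 33, 34 and 53 and 113, 108 and 33.4 CPM in high-dose libraries 41, 42 and 65. Library 53 lay between the other naive libraries, while library 65 was the lowest of all. In libraries 1 to 48 alone (2 against 2), 11 members were called higher and 0 lower, against 7.13% of genes called higher. They were 6 of the 7 beta ring genes, the inducible Psmb8 and Psmb10, Psma5 and Psma7 of the alpha ring, and Psme1, with log2 fold changes from 0.73 (Psmb3) to 1.48 (Psmb8). Psma5 rose by 1.27 ± 0.25 there (adjusted p = 0.0146, edgeR), where in females it fell.

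The difference between the sexes was tested as an interaction in naive and high-dose ventricle. No member was called with all 12 libraries, nor was any other gene (0%), and the smallest p values were those of Psma5 (-1.35 ± 0.46, female minus male, adjusted p = 0.952, edgeR) and Psmd5 (-0.81 ± 0.29, adjusted p = 0.952, edgeR). At an unadjusted p under 0.05, 2 members had a higher and 2 a lower effect in females, a cut for which the share of all genes is not given here. In libraries 1 to 48, Psma5, Psmb4 and Psma6 were called with a lower effect in females, against 1.96% of genes lower. Psma5 had 23.9 and 32.0 CPM in naive and 75.3 and 63.4 CPM in high-dose males, and 47.3 and 47.7 CPM in naive and 38.0 and 32.6 CPM in high-dose females. So high-dose libraries were above naive in males and below naive in females.

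At the low dose in males, 0 members were called (0% of genes), and 8 were higher and 1 lower at an unadjusted p under 0.05, against 5.83% higher. Psmb2 (0.79 ± 0.20, adjusted p = 0.290, edgeR) and Psma2 (0.85 ± 0.23, adjusted p = 0.290, edgeR) led. Library 71 of this group and naive library 53 are among those opposite to their label, and library 46 held 706 CPM of Myl4. The count of 8 became 3 without library 46, 12 without library 71 and 8 without library 53, with medians over members of 0.18, 0.36 and 0.19. Among all genes, 772 of 14442, 2289 of 14300 and 2978 of 14171 had such a p in either direction in these fits.

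Hearts without the receptor showed no called member in either ventricle. In female Ahr-/- ventricle, where 0.0216% of genes were called, 6 members were higher and 1 lower at an unadjusted p under 0.05, against 6.12% higher. Psmd6 (0.45 ± 0.15) and Psmd1 (0.46 ± 0.17) had the smallest p, with adjusted p = 0.515 for both by edgeR. The count of 6 ran from 0 (without library 35) to 9 (without library 39, where 10 were lower), and was 3, 4 and 2 without library 36, 40 or 60. Such a p in either direction was held by 603 of 14300 genes without library 35 and by 3773 of 13988 without library 39. In male Ahr-/- ventricle (0% of genes called), Psmb4 (0.56 ± 0.21) and Psmb5 (0.88 ± 0.35) led, with adjusted p = 0.827 for both by edgeR. Here naive library 53 and Ahr-/- library 59 have opposite sex-linked genes and Myl4 at an atrial level. The count of members higher at an unadjusted p under 0.05 was 3, and it became 3 without library 53, 11 without library 59, 2 without library 34 and 0 without library 33, 37 or 38. In either direction, 1570 of 14244 genes had such a p without library 53 and 2261 of 14248 without library 59.

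In the atria 0 members and 0% of genes were called in all 12 comparisons with naive libraries. In female left atrium at the low dose, 10 members were higher at an unadjusted p under 0.05, against 8.69% of genes (6 without library 20), and Psmb2 (0.87 ± 0.17, adjusted p = 0.153, edgeR) and Psmb10 (0.99 ± 0.24, adjusted p = 0.156, edgeR) led. Without library 20, 1650 of 15242 genes had such an unadjusted p in either direction. At the high dose there, Psmb10 (0.81 ± 0.22) and Psmb8 (1.01 ± 0.34) had the smallest p, with adjusted p = 0.592 for both by edgeR. In male left atrium at the high dose 7 members were higher, against 4.75% of genes, with Psma2 (0.98 ± 0.28, adjusted p = 0.369, edgeR) and Psma4 (0.82 ± 0.28, adjusted p = 0.373, edgeR) leading. Each group of male left atrium holds a library low in Myl4 (naive 51, Ahr-/- 57, low-dose 69, high-dose 63). The count of 7 at the high dose became 10 without library 51, 2 without library 63 or 17, and 1 without library 18 or 25. Among all genes, 2413 of 15263 had such a p in either direction without library 51, 1585 of 15255 without library 63 and 882 of 15215 without library 17. Without library 18 or 25 they were 1126 of 15113 and 812 of 15114. At the low dose in male left atrium Psmc3ip (1.57 ± 0.66) and Psma2 (0.98 ± 0.49) led, with adjusted p = 0.999 for both by edgeR, and in male Ahr-/- left atrium Psma2 (0.42 ± 0.23) and Psma7 (0.26 ± 0.18), with adjusted p = 0.928 for both. The members' median at the low dose was 0.11, and it became -0.16 without library 69 and 0.28 without library 51. In male Ahr-/- left atrium it was 0.16, and 0.32 without library 51 or 0.084 without library 57.

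In right atrium Psmb8 led in females at both doses, with 0.82 ± 0.28 at the low (adjusted p = 0.974, edgeR) and 0.80 ± 0.30 at the high dose (adjusted p = 0.973, edgeR), and Psmb10 was next, at 0.57 ± 0.28 and 0.68 ± 0.35. In male right atrium Psmb2 (0.48 ± 0.20) and Psmb10 (0.51 ± 0.22) led at the low dose, with adjusted p = 0.941 for both by edgeR, and Psmb9 (1.41 ± 0.41, adjusted p = 0.816, edgeR) and Psma1 (0.54 ± 0.24, adjusted p = 0.907, edgeR) at the high dose. In Ahr-/- right atrium the leading members were Psme1 (-0.76 ± 0.38) and Psmb6 (-0.45 ± 0.23) in females, with adjusted p = 0.817 for both by edgeR, and Psme2b (0.70 ± 0.31) and Psma6 (0.48 ± 0.23) in males, with adjusted p = 0.821 for both. In female right atrium, naive library 4 and high-dose library 11 are low in Myl4, and libraries 50, 56, 62 and 68 are opposite to their sex label. Without library 4 the members' median was 0.019 in Ahr-/-, 0.20 in low-dose and 0.25 in high-dose mice, where it was -0.06, 0.10 and 0.14 with it. Without library 3 it was -0.16, -0.0059 and -0.00066, and without high-dose library 11 it was -0.0033. Without library 50 it was -0.031, 0.18 and 0.12, and without the group's own library 56, 68 or 62 it was -0.11, 0.024 and 0.12. Over the 18 comparisons with all libraries, the members' median log2 fold change ran from -0.06 (female Ahr-/- right atrium) to 0.35 (low-dose female ventricle), and that of all genes from -0.01 to 0.07. These comparisons share naive libraries within each sex and chamber. In the 17 comparisons without a call, 75 members were higher and 2 lower at an unadjusted p under 0.05 in sum, where 4.02% of all genes were higher and 4.14% lower. DESeq2 called 4 members higher in low-dose female ventricle (2.6% of genes higher), 4 in low-dose female left atrium (2.3%) and 2 in low-dose male ventricle (0.969%).

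In female Ahr-/- left atrium 14 members were higher at an unadjusted p under 0.05, against 7.12% of genes. Psmb5 had 28.6, 27.1 and 41.2 CPM in naive libraries 19, 20 and 52 and 73.6, 77.0 and 38.7 CPM in Ahr-/- libraries 23, 24 and 58, and its log2 fold change was 0.97 ± 0.29 (adjusted p = 0.359, edgeR). Psmb10 followed, at 0.85 ± 0.25 (adjusted p = 0.359, edgeR). The count of 14 became 2, 6, 5 and 3 without library 19, 20, 23 or 24, and 23 without library 58. In libraries 1 to 48 alone, 20 members were called higher and 0 lower, against 9.02% of genes higher, led by Psmb5 (1.42 ± 0.17, adjusted p = 0.00254, edgeR). Both Ahr-/- libraries of that fit, 23 and 24, had Myl4 at 46.4 and 5.20 CPM, outside the atrial range, and library 58, whose Myl4 was atrial, had Psmb5 within the naive range. Genotype and chamber cannot be told apart in these libraries.

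Between chambers, every member called was higher in ventricle. Over 72 libraries by label, 8 members were higher in ventricle than in left atrium and 0 lower, against 8.12% and 11.5% of 15054 genes. Against right atrium 23 were higher and 0 lower, against 15.7% and 17.6% of genes. Left and right atrium differed at no member (0% of genes). Pairing of chambers by heart was not modelled. The members' median log2 fold change was 0.15 against left and 0.25 against right atrium, beside -0.01 and -0.02 for all genes. Scaled by library totals alone, where the median of all genes was -0.16 and -0.21, the calls were 0 against left atrium and 4 higher and 3 lower against right atrium. The share of all genes called with that scaling is not given here.

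The largest differences from left atrium among called members were those of Psme4 (0.39 ± 0.12, adjusted p = 0.0174, edgeR), Psmd12 (0.32 ± 0.10, adjusted p = 0.0238, edgeR) and Psmd11 (0.26 ± 0.08, adjusted p = 0.0121, edgeR). Psme4 had a median of 585 CPM in ventricle (range 202 to 839), 411 in left atrium (195 to 765) and 418 in right atrium (196 to 702). Psmd12, a scaffold subunit of the lid, had a median of 195 CPM in ventricle (103 to 329.7), 158 in left atrium (78.0 to 219) and 144 in right atrium (97.5 to 253). The ranges of the chambers overlapped widely for both. Psmd2, a large scaffold of the base, had the smallest p against both atria, at 0.23 ± 0.06 against left (adjusted p = 0.00940, edgeR) and 0.30 ± 0.06 against right atrium (adjusted p = 0.000311, edgeR).

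**Figure D4:**
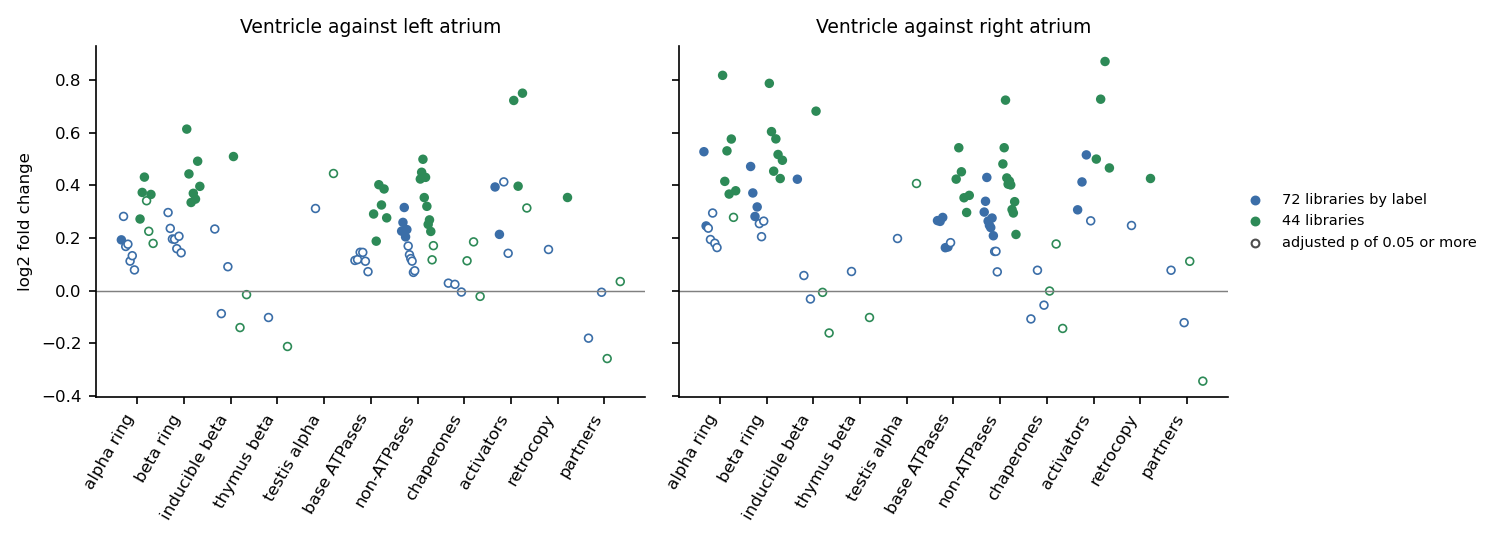
Log2 fold changes of the members for ventricle against left and right atrium, 1 point per gene by role; blue uses 72 libraries by label, green the 44 libraries numbered 1 to 48 without the 4 atrial ones low in Myl4, and filled points were called. Called points all lie above 0, and no chaperone, partner or inducible subunit other than Psmb10 was called in the 44 libraries.

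More members were called without the libraries that stand apart, although library 46 was kept. Without libraries 49 to 72 and without libraries 4, 11, 23 and 24, 31 members were higher in ventricle than in left atrium, against 22.6% of 14857 genes higher and 24.1% lower, and 36 than in right atrium, against 25.3% and 27.6%. No member was called lower in either, and the medians were 0.34 and 0.42. The calls against right atrium took in 7 of 7 beta ring genes, 6 of 7 alpha ring genes, 6 of 6 ATPases, 11 of 11 base and lid subunits and 4 of 4 activator genes. They took in 0 of 3 chaperones, 0 of 2 partners and 1 of 3 inducible subunits, Psmb10, at 0.68 ± 0.09 (adjusted p = 5.43e-08, edgeR). Psmb8 was at -0.16 and Psmb9 at -0.01, neither called. The largest values were those of Psme1 (0.87), Psma1 (0.82) and Psmb7 (0.79). Of the 35 other listed genes, 27 were higher in ventricle and 0 lower, including all 5 assembly factors tested and Trim63 and Fbxo32. Atrial and ventricular tissue hold different shares of cardiomyocytes and other cells, and their part in the difference was not tested. The 18 naive libraries alone gave 0 calls of members in each of the 3 contrasts. The share of all genes called in those fits is not given here, so these counts are no result about the members in particular.

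Within groups, many pairs of members varied together from library to library. Across 72 libraries, taken as deviations from their group means on the log2 scale, the median correlation was 0.38 over the 1035 pairs of members and 0.76 over the 21 pairs within the beta ring, beside 0.41 in the alpha ring, 0.45 among ATPases and 0.49 among base and lid subunits. The closest pairs were Psmb3 with Psme1 (r = 0.91), Psmb1 with Psmb4 (r = 0.91) and Psma2 with Psmc5 (r = 0.90). Among the inducible subunits, Psmb8 followed Psmb9 (r = 0.60) more than it followed Psmb5 (r = 0.27), whereas Psmb10 followed Psmb7 (r = 0.76). The lowest pair was Psmd5 with Psme3ip1 (r = -0.64). All these values share libraries, depth and scaling, and they are given as a description. The median over pairs of other genes is not given here, so they show no trait particular to the members.

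Transcript levels of the core particle followed those of complex I across libraries. The mean log2 CPM of its 14 alpha and beta ring genes correlated with that of 36 nuclear genes of complex I, the entry enzyme of the respiratory chain, at r = 0.97 (Spearman's rho = 0.96) over 72 libraries, at r = 0.96 without the 2 libraries farthest from the median of complex I, and at r = 0.96 as deviations from group means. Within chambers r was 0.95 in right atrium, 0.97 in left atrium and 0.97 in ventricle (24 libraries each), and it was 0.96 in libraries 1 to 48 and 0.97 in libraries 49 to 72. As deviations from group means, r was 0.67 between the core and 75 genes of ribosomal proteins, 0.83 between the core and the 17 genes of the base and lid, and 0.78 between these and complex I. Single members ran from Psmb7 (r = 0.92) and Psmb6 (r = 0.92) through Psmb8 (r = 0.13) and Psmb9 (r = 0.04) to Psmb11 (r = -0.41). The libraries share their scaling and dissection, chambers come from the same hearts, and the values are a description without a test.

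**Figure D5:**
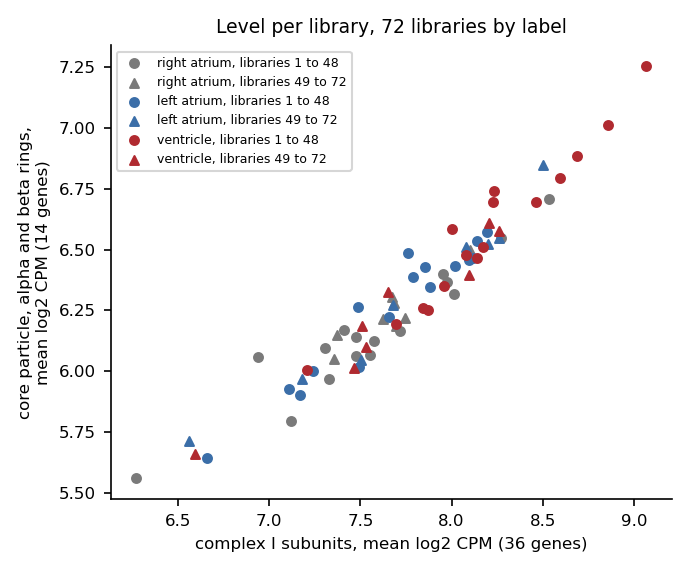
Mean log2 CPM of 14 core particle ring genes against that of 36 complex I genes, 1 point per library (72), with chambers told apart by colour and libraries 49 to 72 as triangles. The points lie along one line in all 3 chambers (r = 0.97).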

How the data were processed

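RNA from 3 heart compartments of male and female mice was sequenced in 72 libraries, in 24 groups of 3 by genotype or dose, sex and compartment. The authors aligned reads to mm10 with TopHat, after base calling with CASAVA 1.8 per the labels, and counted those on coding regions; the deposited values are raw counts per gene without normalization. The handling of strand and of multiple alignments is not given in the sources used here. Dose units and the vehicle were taken from the study's methods, since labels carry no unit.

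The members and lists were chosen with earlier results of these data known. Genes were fitted with edgeR 4.0.16 in R 4.3.3 (TMM scaling; genes kept by filterByExpr at a count of 10 and a total of 15; robust quasi-likelihood test; Benjamini-Hochberg adjustment over all genes tested) and called at an adjusted p under 0.05; the study used 0.0001. Each of 18 comparisons had its own fit of 6 libraries. Chambers were compared in an additive model over 72 libraries, with the cells of group and sex as covariates, and sexes by an interaction. CPM were TMM-scaled over all libraries; coding lengths came from GENCODE (longest coding transcript), promoters from RefSeq. Alternatives were RLE, library size, no filter, DESeq2 1.42.0, a term for the library series (1 to 48 against 49 to 72), libraries 1 to 48, all 4 groups together, length and GC trends removed, and each library left out. The methods were tested on simulated data. Replicates differed beyond sampling noise, so none was merged. Named were the 8 members of smallest p in high-dose female ventricle, the catalytic pairs, the activators, 2 of smallest p in each other comparison and the 3 largest chamber differences; other members with values were named after these were seen. Precision is set mainly by the spread between 3 libraries, as totals of 11873417 to 28789382 counts make counting error small for most members. For members at a few CPM, such as Psmb9, Psmc3ip and Psma8, counting error is larger. The assembly factor Paaf1 was not analysed here. Some genes of the lists are not reported here by name.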

Additional observations from a re-analysis of the deposited data

Results flagged for a closer look

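The effect of the high dose in ventricle differed between the sexes for 3 members in libraries 1 to 48, by edgeR's interaction term. Female minus male, the log2 difference was -1.71 for Psma5 (adjusted p = 0.0148), -1.25 for Psmb4 (adjusted p = 0.0332) and -1.05 for Psma6 (adjusted p = 0.0488). Psmb4 had 59.9 and 67.2 CPM in naive and 154 and 116 CPM in high-dose males, and 85.0 and 89.0 CPM in naive and 83.6 and 68.7 CPM in high-dose females. Psma6 had 106 and 135 CPM in naive and 182 and 201 CPM in high-dose males, and 133 and 139 CPM in naive and 109 and 95.7 CPM in high-dose females. With all 12 libraries, among them 2 labelled male whose sex-linked genes are opposite to the label, none of the 3 was called.

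Psma1, a subunit of the alpha ring, lay below all naive libraries in high-dose females (log2 fold change -0.37) and above all in high-dose males (0.54) in right atrium, and was called in neither sex (adjusted p = 0.973 and 0.907, edgeR). Of all genes, 5.22% lay below in females and 4.90% above in males in the same way. Females had 121, 139.8 and 166 CPM in naive and 114, 101 and 113 CPM in high-dose libraries, and males 74.5, 126 and 111 CPM in naive and 165, 132 and 153 CPM in high-dose libraries. The difference was not tested. Psma1 was found by a search of all members, over groups, sexes and chambers, for such opposite directions. The share of all genes with both directions at once is not given here. In the female groups, libraries 50 and 62 have sex-linked genes opposite to the label, and libraries 4 and 11 are low in Myl4, so 2 of 3 libraries in each stand apart.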

How the results depend on the processing

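No paired analysis was possible because the labels give each library its own number. A term for the library series (1 to 48 against 49 to 72) gave 14 members higher and 3 lower in high-dose female ventricle and none in the other 17 comparisons. In high-dose female ventricle, where 18 members were called, the count was 8 with library size only, 10 in libraries 1 to 48, 4 with 4 groups in one fit and 0 at an adjusted p under 0.0001. It ran from 8 to 21 with each library left out. The calls among all genes ran from 789 higher and 764 lower without library 35 to 1957 and 1960 without library 44. The median log2 fold change of all 46 members, 0.21, became 0.046 with library size only, 0.30 in libraries 1 to 48 and 0.15 with the length trend removed, and ran from 0.13 to 0.24 with libraries left out. Over all 18 comparisons the 18 calls became 28 with DESeq2, 41 in libraries 1 to 48, 8 with library size only, 4 with 4 groups in one fit and 0 at 0.0001. The calls gained were 4 each for low-dose female ventricle and left atrium and 2 for low-dose male ventricle (DESeq2), and 20 for female Ahr-/- left atrium and 11 for high-dose male ventricle (libraries 1 to 48). With a library left out they ran from 0 to 5 in female Ahr-/- left atrium (5 without library 58), from 0 to 4 in female Ahr-/- ventricle (4 without library 39) and from 0 to 3 in low-dose female ventricle (3 without library 48). Beside these, 159 of 15072 genes were called higher and 211 lower without library 58. Without library 39 the calls among 13988 genes were 516 higher and 478 lower, and without library 48 they were 143 and 51 of 14151. The sex interaction gave 3 calls in libraries 1 to 48. Against left atrium the 8 ventricle calls became 26 in libraries 1 to 48, 31 in those without the atrial libraries low in Myl4, and 0 in naive libraries, with library size only and at 0.0001; against right atrium the 23 became 36, 0, 7 and 0 in the last 4 of these settings. Among the members named by rule, signs turned for some not called: Psmb6 with the GC trend removed (-0.029), Psmb7 in libraries 1 to 48 (0.014), and Psme3 with library size only (-0.15), with the length trend removed (-0.046) and without library 35 (-0.020) or 36 (-0.0043), its values with a library left out running from -0.020 to 0.078. Of 360 values of 24 named members under these settings, 270 kept direction and call status, 82 lost the call, 2 gained it and 6 turned. The 270 include values of members that were not called to begin with. All 82 losses fell on the 18 called members, which kept their call in 3 (Psmb9) to 15 (Psmb2 and Psmc5) of 15 settings. The share of all genes called is not given here for the series term, library size only or 4 groups in one fit. Nor is it given for chambers in libraries 1 to 48 with the atrial libraries low in Myl4 kept. Counts without that share are no result about the members in particular. The cause of these changes was not tested. The 3 libraries per group limit what can be told apart.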
